A study of Rattus norvegicus with 33 samples.

Results

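The change of the rat mammary gland between postnatal day 21, before puberty, and day 42, around its onset, was described from 15 of the 33 arrays of a developmental series. The 10 pre-pubertal glands (day 21) and the 5 peri-pubertal glands (day 42) came from female Sprague-Dawley rats, an outbred strain, with no allele named in the labels, and were chosen by their labelled stage. All of these rats were controls that received 0.5 mL of olive oil into the stomach, the vehicle of a parent study of environmental chemicals, so untreated glands were not measured. The day 21 pups still lived with their dams, since weaning was at day 28, whereas the day 42 rats had been weaned. Glands of the fifth pair, left and right, were collected on 1 day per stage, and the estrous stage was left to chance. Age, weaning and collection day therefore cannot be told apart in this comparison. RNA of both groups was extracted with the same kit, and the arrays lay in the labelled batches 1 (6 arrays of day 21 and 3 of day 42) and 2 (4 and 2). The series record counts 10 pre-pubertal animals and the sample notes count 5 per stage. If the 10 arrays came from fewer animals, the p-values given here are too small.

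The mammary gland is a branched epithelium set in a fat pad. Its ducts have an inner luminal layer, which includes cells that carry hormone receptors and cells that can become milk-secreting, and an outer basal layer that contracts. Before puberty the ducts are short. At puberty ovarian estrogen, growth hormone and the insulin-like growth factors drive terminal end buds, the growing tips of ducts, through the fat pad, with amphiregulin and fibroblast growth factors passing signals between epithelium and stroma. Progesterone and prolactin later drive side branching and the alveoli that make milk.

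Values are the deposited log2 intensities, so that a difference of 1 is a 2-fold change, and differences are day 42 minus day 21 with their standard error (SE) from limma with batch in the model. The values of the 5 day 42 arrays are always given in the order of arrays 1 to 5, of which the first 3 belong to batch 1. A gene is said to have risen or fallen where its Benjamini-Hochberg adjusted p over all 10986 genes tested was under 0.05. By that rule 3552 genes changed (32.3%), 1883 up (17.1%) and 1669 down (15.2%), and the median difference over all genes was -0.0001. Every count of a gene list below is to be read against those shares. At least 2-fold changes numbered 290 up (2.64%) and 322 down (2.93%), and the values of 550 genes (5.01%) did not overlap between the groups, 354 higher (3.22%) and 196 lower (1.78%), of which 548 (4.99%) were called. The number of arrays, and not a read depth, limits the precision of these values.

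The marker lists differed between arrays, and these values move with many of the results that follow. The mean of 20 luminal epithelial genes ranged from 6.63 in pre-pubertal array 2 to 9.32 in array 8, with a median of 7.9, and from 9.22 to 9.88 at day 42, so that only array 8 reached the day 42 range. The T cell mean (17 genes) was 9.49 at the median of day 21 and 6.84 in array 8, against 6.72 to 6.89 in peri-pubertal arrays 1 to 4 and 7.99 in array 5. The B cell mean followed the same order, with 6.6 in pre-pubertal array 8 and 8.42 in peri-pubertal array 5. Skeletal muscle genes stood high in pre-pubertal array 10 (9.76) and peri-pubertal arrays 1 (9.4) and 4 (8.96), with a median of 6.55 at day 21. limma called 0 of the 14 muscle genes (0 at an unadjusted p under 0.05). The luminal, basal, fat, lymphocyte and muscle lists were all read, while the markers Krt5, Trp63, Acta2, Pecam1 and Kdr were not analysed here. In whole glands, fewer cells of a type and less RNA per cell cannot be told apart.

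**Figure D1:**
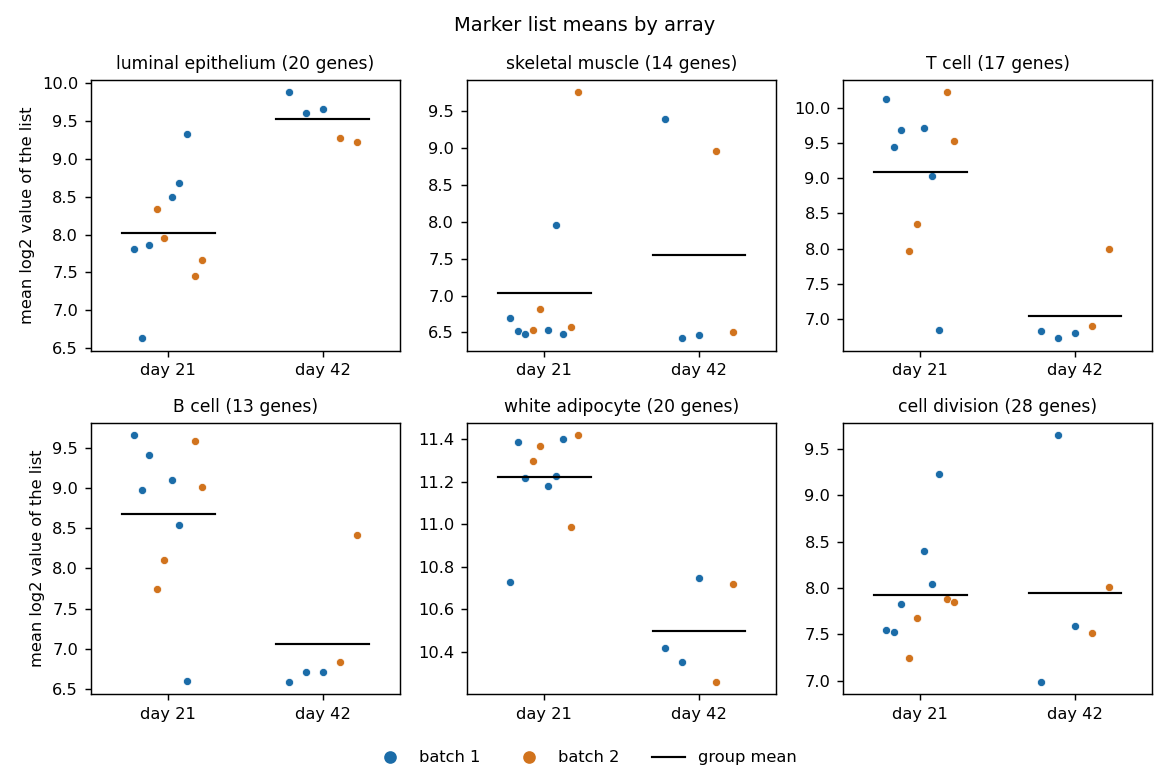
Each panel plots the mean deposited log2 value of 1 marker list (y axis) for every array of day 21 and day 42 (x axis), with points coloured by batch and a bar at the group mean. The luminal means of day 42 were reached by a single day 21 array, T and B cell genes were low in 4 of 5 day 42 arrays and in pre-pubertal array 8, and cell division genes overlapped throughout.

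Within batch 1 alone (3 against 6 arrays) 1693 genes were called (15.4%), 889 up (8.09%) and 804 down (7.32%), and 1621 of them were also called with both batches. Within batch 2 alone (2 against 4) 466 were called (4.24%), 370 up (3.37%) and 96 down (0.874%), of which 463 were shared. Of the 3552 genes called with both batches, 99.9% had the same sign in both batches, against 78.9% of all genes. Those calls were made from the same arrays, which favours genes of 1 sign, so the share is not an independent check. limma's test of the stage by batch interaction over the 15 arrays called 0 genes (216 genes, 1.97%, at an unadjusted p under 0.05), and a fit over all 33 arrays also called 0 (189 genes, 1.72%). Without a batch term 1325 genes were called, all among the 3552.

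**Figure D2:**
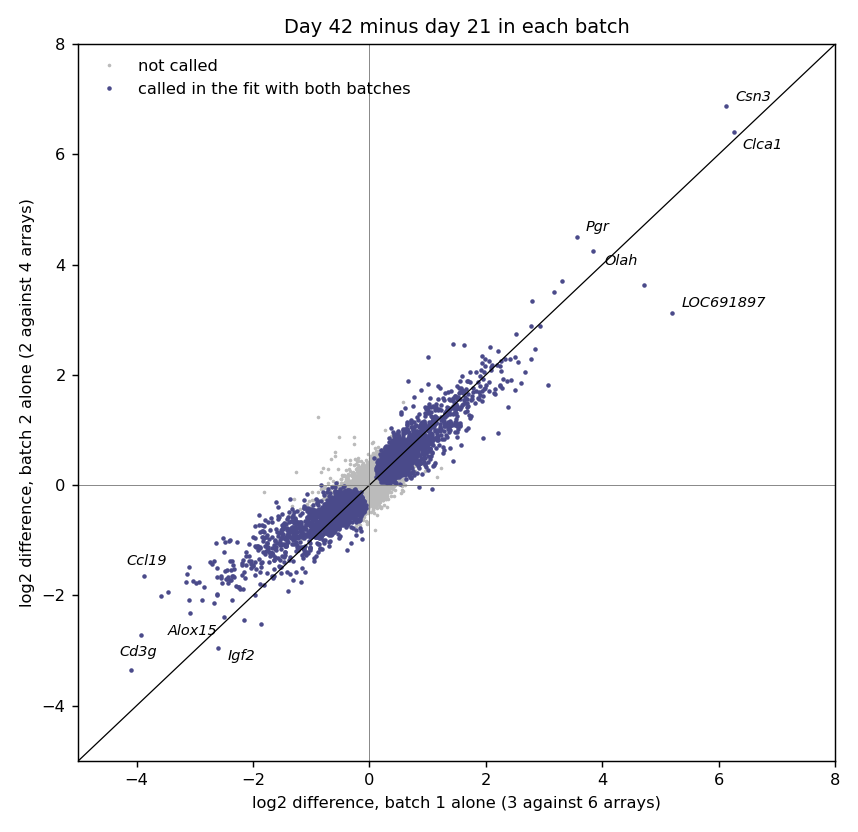
Each point is 1 gene, with its log2 difference (day 42 minus day 21) in batch 1 alone on the x axis and in batch 2 alone on the y axis; the diagonal marks equal differences, and dark points were called in the fit with both batches. Csn3 and Clca1 stood above 6 in both batches, and the lymphocyte genes Cd3g and Ccl19 fell more in batch 1 than in batch 2.

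Genes of milk proteins rose before any pregnancy. Csn3, which encodes kappa-casein, the protein that keeps casein micelles in suspension, ran from 5.46 to 7.84 with a median of 6.24 at day 21 and read 13.17, 12.61, 12.87, 12.65 and 12.68 at day 42. The groups lay more than 4 log2 units apart, and the difference of 6.42 ± 0.21 (85.7-fold, adjusted p = 1.26e-19) was the largest of all genes in these values. In 9 of the 10 day 21 glands the value lay under 7.645, the level used to filter genes. Among genes described below, all 10 day 21 values of Csn2, Csn1s2a, Csn1s2b, Pgr, Mmp12, Ramp3, Scnn1a, Bmpr1b, LOC691897 and LOC690359 lay under it. The same held for Odam, Wap, Rspo3, Gzma and Scgb1d2-ps1. Log2 intensities can be compressed at both ends of the scale, so each fold is that of the intensities. Csn2 (beta-casein) ran from 4.36 to 7.62 with a median of 5.76 and reached 8.95, 11.17, 8.41, 8.5 and 8.99, a difference of 3.46 ± 0.52 (adjusted p = 1.05e-05). Array 2 was the highest of the day 42 glands for Csn2 and again for Csn1s2a, an alpha-S2-type casein, which read 6.9, 10.27, 7.36, 6.22 and 8.06 against 5.26 to 5.999 at day 21. The Csn1s2a difference of 2.19 ± 0.63 (adjusted p = 0.0082) was 1.60 without that array (adjusted p = 0.0562). Csn1s1 (alpha-S1-casein) was already high, ran from 8.76 to 13.1 with a median of 12.04, and was 13.31, 13.22, 13.25, 13.13 and 13.29 at day 42 (1.35 ± 0.37, adjusted p = 0.00565). Its lowest day 21 value was in array 2, which also had the least luminal signal, and the call was lost when only the 15 arrays were fitted (adjusted p = 0.0547).

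In the RefSeq gene table of build GRCr8 the caseins lie in 1 cluster, which runs from Csn3 to Csn1s1 and holds 11 annotated genes. All 7 of those that were tested rose at day 42. Besides the caseins these were Odam (0.92 ± 0.17), which encodes a protein of tooth enamel epithelium that is also made in the gland, and Prr27 (2.43 ± 0.47, adjusted p = 0.000244), whose groups did not overlap. Prr27 read 12.88, 13.02, 12.86, 12.39 and 12.73 against 7.47 to 12.25. Csn1s2b rose by the least of the caseins (0.64 ± 0.13). Its values of 7.53, 7.15, 7.32, 6.62 and 6.7 at day 42 overlapped with 6.12 to 6.72 at day 21. The batch 1 arrays read higher than those of batch 2, and the difference was 0.85 in batch 1 and 0.32 in batch 2.

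Prolactin acts on casein genes through STAT5, which binds the motif TTCNNNGAA. The motif reads the same on both strands, and it was searched, with these results known, in the 250 bases before the start of every gene in the RefSeq promoter table (GRCr8). It stood in 7.67% of 33469 such windows. It was found once in each of Csn1s1, Csn1s2a, Csn1s2b and Csn2, beginning between base -102 and base -97 relative to the start, and not in that window of Csn3. The windows of the milk genes Lalba, Wap and Btn1a1 held none either. A stretch from 140 to 41 bases before each casein start is printed from 5′ to 3′ on the gene's own strand, with the motif in capitals. The 4 matches lie at nearly the same distance, while the differences of those 4 genes ranged from 0.64 to 3.46.

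Csn1s1, chr14:20638890-20638989, minus strand: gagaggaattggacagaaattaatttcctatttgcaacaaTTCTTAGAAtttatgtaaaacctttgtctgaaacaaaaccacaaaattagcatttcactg
Csn1s2a, chr14:20574512-20574611, minus strand: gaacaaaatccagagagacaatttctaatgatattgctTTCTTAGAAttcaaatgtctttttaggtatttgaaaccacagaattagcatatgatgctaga
Csn1s2b, chr14:20545659-20545758, minus strand: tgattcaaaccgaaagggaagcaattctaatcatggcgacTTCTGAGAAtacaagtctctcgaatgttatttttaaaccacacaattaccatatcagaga
Csn2, chr14:20601684-20601783, plus strand: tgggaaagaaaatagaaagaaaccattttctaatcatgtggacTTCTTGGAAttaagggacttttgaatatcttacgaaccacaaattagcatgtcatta
Csn3, chr14:20439871-20439970, minus strand: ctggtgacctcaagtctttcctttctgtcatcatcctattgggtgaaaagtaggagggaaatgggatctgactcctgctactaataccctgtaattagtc

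A match to these letters is a description and not a measured binding site. Csn3, without a match in its window, had the largest difference. Csn1s2b, with a match, had the smallest of the caseins, and its values at both ages lay under the filter level. The part of STAT5 in these differences was not tested.

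Other milk genes varied widely among the day 21 glands. Btn1a1 (butyrophilin, of the milk fat globule membrane) ran from 5.88 to 11.3 with a median of 9.66 at day 21 and read 12.58, 12.15, 12.27, 11.43 and 11.03 at day 42 (2.42 ± 0.48, adjusted p = 0.000304), with overlap. Muc15, a mucin of the same membrane, read 10.92, 10.51, 10.67, 10.81 and 10.78, above all day 21 values of 5.11 to 9.21 (2.69 ± 0.37). Lalba (alpha-lactalbumin, a subunit of lactose synthase) rose by 1.37 ± 0.46 (adjusted p = 0.0224) with day 42 values of 13.01, 12.04, 12.93, 11.94 and 12.02 that overlapped the day 21 range of 7.47 to 12.94. Leaving out peri-pubertal array 1 or 3 ended that call (adjusted p = 0.0604 and 0.0575), and so did leaving out the 3 muscle-rich arrays (adjusted p = 0.129). Wap (whey acidic protein, a late marker of secretion) read 7.59, 7.8, 7.29, 6.44 and 6.63 against 6.18 to 6.72 and did not pass (0.76 ± 0.56, adjusted p = 0.32). Its 3 batch 1 arrays lay above every day 21 value and its 2 batch 2 arrays within them.

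Glycam1, which encodes a mucin-like protein of milk and also of lymph node venules, went the other way, and its values had the largest SD of the milk genes at both ages. It ran from 7.24 to 13.35 with a median of 12.68 at day 21, with the low value in array 8, and read 8.76, 13.38, 7.43, 6.84 and 11.76 at day 42. The difference of -2.28 ± 0.89 had an adjusted p of 0.0489. The call was lost when any of 10 single arrays was left out (pre-pubertal 1, 2, 3, 6, 7, 9 or 10, or peri-pubertal 1, 3 or 4), and without the 3 muscle-rich arrays the difference was -0.99 (adjusted p = 0.541). Of the 19 milk protein genes tested, 13 rose and 2 fell (Glycam1 and Lpo), with a median difference of 0.76.

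**Figure D3:**
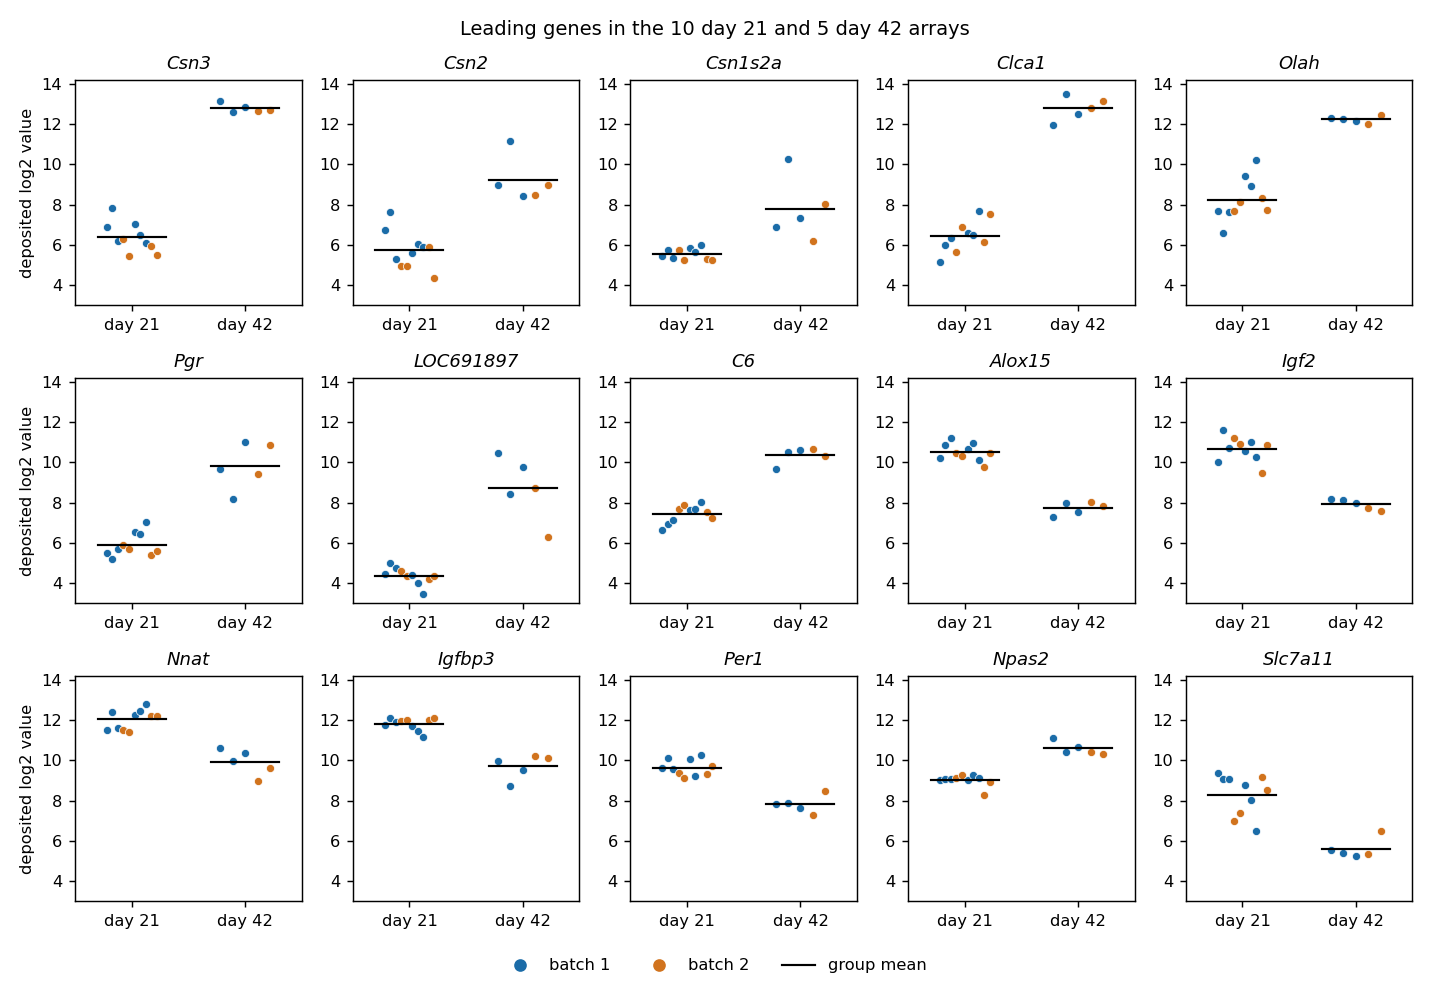
Deposited log2 values (y axis) of 15 genes in the 10 arrays of day 21 and the 5 of day 42 (x axis), with points coloured by batch and a bar at the group mean. The 2 ages did not overlap for any of these genes, and the day 42 values of Csn1s2a and LOC691897 spread over more than 4 log2 units.

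Genes for channels that move chloride, sodium and water across epithelium were among the largest rises. Clca1, a secreted regulator of calcium-activated chloride channels, ran from 5.15 to 7.71 with a median of 6.43 at day 21 and read 11.94, 13.48, 12.52, 12.8 and 13.14 at day 42. Its difference of 6.31 ± 0.34 (79.5-fold, adjusted p = 1.06e-13) was next in size to that of Csn3, and 9 of its 10 day 21 values lay under the filter level. Its relative Clca5 read 10.21, 8.49, 10.63, 10.7 and 10.55 against 5.54 to 7.93 (3.01 ± 0.44), without overlap, although array 2 stood well below the other 4. The water channel gene Aqp5 rose by 3.3 ± 0.45 (adjusted p = 2.94e-06), from a day 21 range of 5.71 to 9.72 to 11.63, 9.81, 11.77, 11.12 and 11.28, and array 2 was again lowest. Ano1, a calcium-activated chloride channel, rose by 1.78 ± 0.17 and read 11.47, 11.26, 11.57, 11.24 and 11.62 against 9.04 to 10.43. All 3 subunits of the epithelial sodium channel rose without overlap. Scnn1a rose by 1.31 ± 0.13, Scnn1b by 2.26 ± 0.29 and Scnn1g by 2.19 ± 0.26, and for Scnn1b array 1 was the highest (11.36, 9.72, 10.56, 9.87 and 9.72). In the list of 17 epithelial channels 10 rose and 1 fell, with a median of 0.62. Duox1, an oxidase of epithelial surfaces (2.43 ± 0.28), and Slc34a2, a sodium-phosphate cotransporter (2.13 ± 0.33), rose with them.

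Structural and regulatory genes of epithelium were higher at day 42. Of 20 luminal genes tested 19 rose (median 1.55), and of 8 keratins 7 rose. Epcam, an adhesion protein of all mammary epithelium, ran from 4.5 to 10.04 with a median of 8.76 at day 21 and was 10.79, 10.14, 10.66, 10.69 and 10.69 at day 42 (2.15 ± 0.49, adjusted p = 0.00136). The groups did not overlap, and the lowest value again belonged to pre-pubertal array 2. Krt8 and Krt18, the paired keratins of the luminal layer, rose by 1.25 ± 0.27 and 1.45 ± 0.26 and the cadherin gene Cdh1 by 1.35 ± 0.27, all with overlap. The basal keratin gene Krt14 rose by 2.14 ± 0.3 and the luminal Krt19 by 1.77 ± 0.26, but of 12 basal and myoepithelial genes 4 rose with a median difference of 0.11. Among 24 epithelial regulators 20 rose and 0 fell (median 1.28). Elf5, a factor of the alveolar lineage, read 11.01, 10.997, 10.37, 10.5 and 10.51 against 5.8 to 10.12 (2.06 ± 0.38). Grhl2, Ehf and Esrp1, which maintain the epithelial state in transcription and splicing, rose by 1.53 ± 0.31, 1.77 ± 0.35 and 1.82 ± 0.32. Gata3 and Foxa1, regulators of hormone-sensing luminal cells, rose by 1.55 ± 0.21 and 1.47 ± 0.23. In the AP-2 family Tfap2a rose by 1.94 ± 0.26, Tfap2c by 1.66 ± 0.33 and Tfap2b by 1.43 ± 0.37. The Tfap2b call was lost without the 3 muscle-rich arrays (adjusted p = 0.0933).

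Tight junction genes did not move as a block. Of 18 tested, 10 rose and 3 fell, with a median of 0.71. Cldn8, which seals the distal nephron and other tight epithelia, read 10.13, 9.76, 9.7, 9.54 and 9.59 against 5.72 to 9.14 at day 21 and rose by 1.99 ± 0.35 (adjusted p = 7.25e-05). Cldn7, Cldn3 and Cldn4 rose by 1.59 ± 0.26, 1.57 ± 0.26 and 1.43 ± 0.29, each with overlap. Cldn1 was lower in every day 42 array (8.05, 7.74, 8.38, 8.64 and 8.4) than in any day 21 array (9.16 to 10.38) and fell by 1.38 ± 0.33 (adjusted p = 0.00178). Cldn5, the claudin of blood vessels, fell by 0.72 ± 0.13 and its call was lost without a batch term (adjusted p = 0.472).

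Several other genes separated the ages without overlap. Scgb1d2-ps1, a secretoglobin pseudogene, read 7.45, 7.58, 6.66, 6.28 and 6.19 against 3.84 to 4.68 (2.56 ± 0.27, adjusted p = 9.52e-08). All of these Scgb1d2-ps1 values, at both ages, lay under the filter level. Anxa8, an annexin gene of luminal progenitors, rose by 2.61 ± 0.22, Plet1, a surface protein gene of epithelial progenitors, by 2.83 ± 0.37, and the mucin gene Muc1 by 1.9997 ± 0.18. For Plet1 array 2 was again the lowest of the day 42 glands (11.12, 9.78, 11.44, 11.11 and 11.6). Ptges, which makes prostaglandin E, rose by 1.01 ± 0.14. Among genes that were lower, Atp2a3, a calcium pump of blood cells and some epithelia, fell by 1.5 ± 0.22 and the lymphocyte GTPase gene Gimap4 fell by 1.52 ± 0.31.

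Genes of protein folding and export rose at 19 of 30 members with 0 falls (median 0.34, highest 1.08). Xbp1, which directs the build-up of secretory membranes, read 12.71, 12.6, 12.96, 12.68 and 12.86 against 11.43 to 12.49 (0.81 ± 0.12), and the chaperone gene Hspa5 rose by 0.54 ± 0.11.

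**Figure D4:**
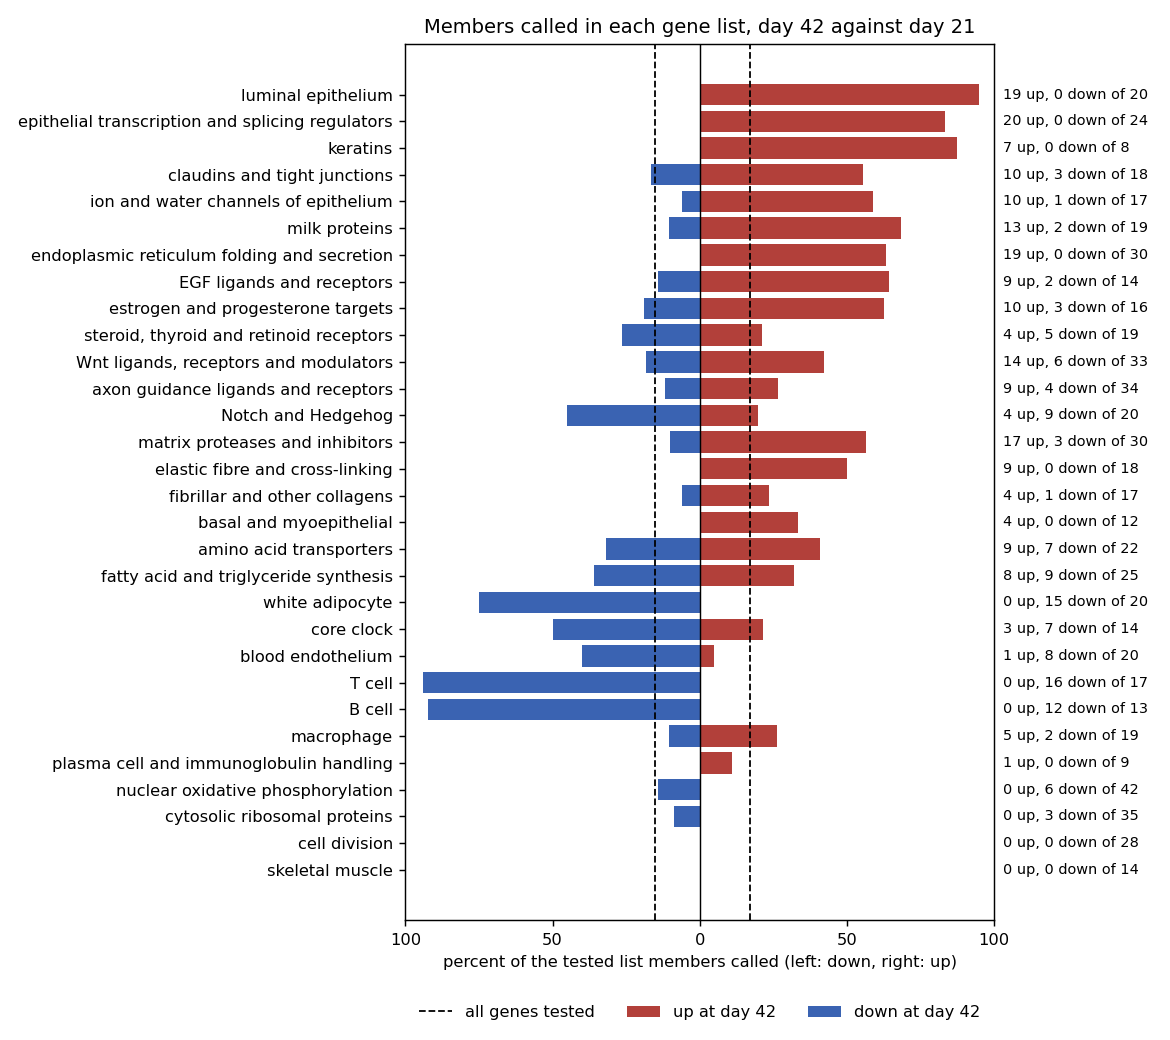
Bars give the percent of tested members of each gene list that were called up (right) or down (left) at day 42, with counts at the right edge; dashed lines mark the shares over all genes tested, 17.1% up and 15.2% down. Epithelial lists lay far to the right, lymphocyte and white adipocyte lists far to the left, and the cell division and skeletal muscle lists had no member called.

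The progesterone and prolactin receptors rose and the estrogen receptor did not pass. Pgr, the progesterone receptor and itself a target of estrogen, ran from 5.22 to 7.03 with a median of 5.7 at day 21 and read 9.69, 8.2, 11.02, 9.42 and 10.86 at day 42. All 5 day 42 arrays lay above day 21, arrays 3 and 5 by the most, and the difference was 3.94 ± 0.52 (15.4-fold, adjusted p = 2.47e-06). Prlr, the prolactin receptor, read 10.23, 9.56, 10.48, 9.75 and 10.28 against 7.002 to 8.64 (2.3 ± 0.22, adjusted p = 1.43e-08), and Vdr, the vitamin D receptor, rose by 1.79 ± 0.2. Esr1, the estrogen receptor, read 9.43, 9.4, 9.26, 9.32 and 8.72 within its day 21 range of 8.54 to 9.87 (0.01 ± 0.15, adjusted p = 0.968). Nr3c1, the glucocorticoid receptor, fell by 0.26 ± 0.08, a call lost without a batch term (adjusted p = 0.354). In all, 4 of 19 nuclear receptors rose and 5 fell. Stat5a, which carries the prolactin signal, rose by 0.61 ± 0.13, a call that also needed the batch term (adjusted p = 0.269 without it).

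Known targets of estrogen and progesterone rose at 10 of 16 members and fell at 3 (median 0.66). Rerg and Ramp3, both estrogen-responsive in breast cells, rose by 1.46 ± 0.16 and 1.53 ± 0.17, and neither overlapped between the groups. Ramp3 read 8.53, 8.54, 8.69, 8.18 and 8.71 against 6.48 to 7.46. Stc2, a secreted glycoprotein, read 9.97, 8.27, 10.74, 10.05 and 9.79 and overlapped with day 21 (7.64 to 8.7) through array 2 (1.59 ± 0.34). Wnt4, a paracrine target of progesterone, rose by 0.78 ± 0.15. Tnfsf11, which encodes RANK ligand and is a target of progesterone in luminal cells and a product of lymphocytes and lymph node stroma, read 6.71, 6.73, 6.8, 6.75 and 6.98 at day 42. Its day 21 values ran from 6.69 to 8.64 with a median of 7.95, and it fell by 1.04 ± 0.25 (adjusted p = 0.00206). The T cell and B cell lists were low in 4 of the same 5 arrays. Tnfsf11 was not called with the mean of those lists as a covariate (-0.18, adjusted p = 0.402), with the mean of the luminal genes in that place (-0.06, adjusted p = 0.972) or in batch 2 alone (-0.71, adjusted p = 0.18). Both covariates differed between the ages, so neither fit can separate them from stage, and the cells behind the fall were not tested.

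Most tested genes for ligands and receptors of the epidermal growth factor family rose. Areg (amphiregulin, the estrogen-induced ligand of ductal growth) ran from 6.56 to 8.56 with a median of 6.82 at day 21 and read 7.5, 7.73, 9.29, 7.97 and 10.31 at day 42 (1.52 ± 0.42, adjusted p = 0.00586). Its values overlapped, array 5 was the highest, and without that array the difference was 1.03 (adjusted p = 0.0503). The Areg call was also lost without a batch term (adjusted p = 0.0551), in batch 1 alone (0.196) and in batch 2 alone (0.0585). With the lymphocyte covariate its adjusted p was 0.109 and with the luminal covariate 0.689. All 4 receptors of the family rose. Erbb4 rose by 2.06 ± 0.25 (adjusted p = 6.3e-07), Erbb3 by 1.33 ± 0.17, Egfr by 1.16 ± 0.15 and Erbb2 by 0.95 ± 0.15. Egfr, which acts mainly in the stroma during ductal growth, read 10.48, 10.45, 10.74, 10.65 and 10.996 against 9.06 to 9.91 with no overlap. Nrg4, a neuregulin made by fat cells, fell by 0.97 ± 0.2. The list had 9 of 14 members up and 2 down. In the fibroblast growth factor family the epithelial receptor Fgfr2 rose (1.4 ± 0.17, adjusted p = 5.82e-07; 11.78, 11.16, 11.44, 11.11 and 10.62 against 9.03 to 10.5), while its stromal ligand Fgf7 fell by 0.998 ± 0.16 and Fgf10, the other stromal ligand, did not pass (-0.4 ± 0.2, adjusted p = 0.122).

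Other developmental pathways moved in parts. Of 26 genes of the TGF-beta and BMP family 5 rose and 6 fell. Bmpr1b, a BMP receptor, read 8.32, 8.02, 8.18, 8.66 and 8.88 against 5.89 to 7.45 (1.74 ± 0.21), and Tgfb3 rose by 1.5 ± 0.19. Grem1, a BMP antagonist, fell by 2.07 ± 0.44 (adjusted p = 0.000625) from a day 21 median of 8.62, although pre-pubertal array 8 was as low as the day 42 glands (5.72 against 6.15, 5.77, 5.93, 6.62 and 6.98). Wnt genes rose at 14 and fell at 6 of 33. Rspo3, an enhancer of Wnt signalling, rose by 1.32 ± 0.43, but its value of 6.97 in array 2 lay within day 21, and leaving out peri-pubertal array 1, 3 or 5 ended the call (adjusted p = 0.0536, 0.0656 and 0.07). The largest falls of the list, Lef1 (fell by 2.56 ± 0.62) and Tcf7 (fell by 2.16 ± 0.49), are transcription factors of Wnt signalling that T cells also express. Both fell together with the T cell list, and with the mean of the lymphocyte lists as a covariate Lef1 was not called (-0.24, adjusted p = 0.359) and Tcf7 was at the threshold (-0.34, adjusted p = 0.05). The lymphocyte mean itself differed between the ages, so that fit cannot separate it from stage. Which cells these falls came from was not tested.

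Notch and Hedgehog genes fell more often than they rose, 9 against 4 of 20, with a median of -0.15. Hhip, which binds and holds back Hedgehog ligands, fell by 1.16 ± 0.19 without overlap (6.39, 6.82, 6.69, 7.09 and 7.38 against 7.61 to 8.73), and Dll4, a Notch ligand of blood vessel tips, fell by 0.82 ± 0.15. Guidance molecules that the duct shares with growing axons rose at 9 and fell at 4 of 34. Both members of a pair known from terminal end buds rose, the ligand Ntn1 by 0.78 ± 0.15 and its receptor Neo1 by 0.87 ± 0.13. Neo1 read 10.66, 10.53, 10.68, 10.57 and 10.56 against 9.24 to 10.19. The secreted repellent Slit2 rose by 1.11 ± 0.16 (adjusted p = 4.7e-06; 8.83, 9.87, 9.31, 8.96 and 9.4 against 7.68 to 8.45) and its receptor gene Robo2 by 0.91 ± 0.13. The calls for Ntn1 and Neo1 were lost without a batch term (adjusted p = 0.0829 and 0.0728).

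Igf2 and several other genes of fetal and juvenile growth fell, while Igf1 did not pass the test. Igf2, the imprinted fetal growth factor, ran from 9.46 to 11.6 with a median of 10.77 at day 21 and read 8.17, 8.11, 7.98, 7.73 and 7.58 at day 42. Every day 42 gland lay below every day 21 gland, and Igf2 fell by 2.74 ± 0.24 (adjusted p = 4.83e-09). Igf1, which growth hormone induces in the mammary stroma, read 12.07, 11.97, 12.38, 11.97 and 12.06 against 11.63 to 12.29, with array 3 alone above the day 21 range (-0.02 ± 0.11, adjusted p = 0.922). The binding proteins went in opposite directions. Igfbp3 fell by 2.1 ± 0.24 (9.98, 8.74, 9.53, 10.21 and 10.12 against 11.16 to 12.11) and Igfbp2 rose by 1.99 ± 0.28 (9.22, 9.55, 9.36, 9.95 and 10.06 against 6.52 to 8.84), both without overlap. Igf2bp2, which encodes an RNA-binding protein of the Igf2 messenger, fell by 0.9 ± 0.15. Nnat, an imprinted gene of fat and neural tissue, fell by 2.12 ± 0.22 (adjusted p = 5.64e-08), with day 42 values of 10.63, 9.96, 10.35, 8.97 and 9.62. Plagl1, an imprinted growth regulator, fell by 0.7 ± 0.17, a call lost without a batch term (adjusted p = 0.0862). Of 14 tested members of the juvenile growth list 3 rose and 4 fell.

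Several enzymes that make fatty acids rose, and several that assemble them into triglyceride fell. Olah, the thioesterase that releases medium-length fatty acids in milk fat synthesis, ran from 6.57 to 10.23 with a median of 7.93 at day 21 and read 12.31, 12.27, 12.17, 12.001 and 12.45 at day 42 (4.01 ± 0.33, 16.1-fold, adjusted p = 1.2e-09). The day 42 values were close together and all above day 21. Me1 (malic enzyme, a source of NADPH) rose by 2.25 ± 0.24, Scd (which desaturates fatty acids) by 1.93 ± 0.43, Elovl6 (which lengthens them) by 1.43 ± 0.24 and Acaca (the first committed step) by 0.98 ± 0.18. Me1 and Scd did not overlap between the groups, with Scd at 12.81, 13.69, 13.32, 13.31 and 13.55 against 9.98 to 12.8. On the other side, the acyltransferase gene Gpat3 fell by 1.46 ± 0.19 (adjusted p = 2.42e-06; 8.27, 8.23, 8.6, 8.55 and 9.07 against 9.3 to 11.07), Agpat2 fell by 0.89 ± 0.14 and Dgat1 fell by 0.77 ± 0.13. Insig1, a brake on sterol-responsive transcription, fell by 0.91 ± 0.2. The list as a whole had 8 of 25 members up and 9 down. The calls for Acaca and Dgat1 were lost without a batch term (adjusted p = 0.0982 and 0.0567).

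Fat cell genes fell. Of 20 white adipocyte genes 15 fell and 0 rose (median -0.66), and all 5 tested genes of brown and beige fat fell (median -0.6). Pparg, the master regulator of adipocytes, read 9.99, 9.85, 10.36, 9.69 and 10.1 against 10.63 to 11.51 and fell by 1.16 ± 0.16 (adjusted p = 3.72e-06). Adrb3, the adrenergic receptor of fat cells, fell by 1.1 ± 0.15 with no overlap. Lep (leptin) ran from 7.51 to 10.24 with a median of 9.03 at day 21, read 7.46, 7.74, 7.01, 7.14 and 7.76 at day 42, with a narrow overlap, and fell by 1.61 ± 0.32 (adjusted p = 0.000323). The list mean went from 10.73 to 11.42 at day 21 to 10.26 to 10.75 at day 42, with overlap through pre-pubertal array 1. That narrow spread contrasts with the luminal list, whose day 21 SD was 0.74 against 0.22 for the adipocyte list.

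Amino acid transporters rose at 9 and fell at 7 of 22 tested. The largest fall was that of Slc7a11, which takes up cystine in exchange for glutamate. It ran from 6.52 to 9.39 with a median of 8.65 at day 21, read 5.55, 5.38, 5.24, 5.34 and 6.51 at day 42 and fell by 2.69 ± 0.54 (adjusted p = 0.00038), with array 5 above the other 4. The glutamine transporter gene Slc38a1 fell by 1.58 ± 0.39, a call lost without the 3 muscle-rich arrays (adjusted p = 0.0559). Among enzymes of amino acid breakdown Hpd (tyrosine) fell by 1.65 ± 0.27 and Prodh (proline) fell by 1.54 ± 0.19, both without overlap. Alox15, a lipoxygenase that oxidises polyunsaturated fatty acids, fell by more than any other gene without overlap. It ran from 9.79 to 11.22 with a median of 10.45 at day 21, read 7.28, 7.96, 7.51, 8.03 and 7.83 at day 42 and fell by 2.78 ± 0.16 (6.88-fold, adjusted p = 4.42e-13), and its group mean was lower still in every later stage, between 5.87 and 6.4. Sult1a1, which sulfates phenols and estrogens, fell by 1.33 ± 0.23, and Stra6, the receptor that brings retinol into cells, rose by 1.99 ± 0.22 without overlap. Another 3 of the 15 largest falls without overlap belonged to none of the gene lists. Mal, a membrane protein of myelin, T cells and epithelia, fell by 1.54 ± 0.17 (7.53, 7.27, 7.88, 8.51 and 8.19 against 8.83 to 10.09). Tmeff1, a membrane protein with follistatin-like domains, fell by 1.52 ± 0.18, and Agap2, a GTPase-activating protein, fell by 1.5 ± 0.29.

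Many matrix proteases rose. Of 30 matrix proteases and inhibitors 17 rose and 3 fell (median 0.51). Mmp12, the elastase of macrophages, ran from 5.79 to 6.51 with a median of 6.18 at day 21 and read 9.26, 7.99, 8.48, 8.22 and 7.95 at day 42 (2.22 ± 0.19, adjusted p = 2.8e-09). The groups were more than 1 log2 unit apart. Mmp14, a membrane-bound collagenase of ducts and stroma, read 11.57, 11.48, 11.49, 12.1 and 12.31 against 10.08 to 11.14 (1.14 ± 0.14), and Ctsk (cathepsin K) rose by 1.14 ± 0.17. Among inhibitors Timp1 rose by 1.03 ± 0.18 and Timp4, an inhibitor of fat tissue and vessels, fell by 1.42 ± 0.24 without overlap. Mmp9, a gelatinase of leukocytes, fell by 1.11 ± 0.3, a call lost without the 3 muscle-rich arrays (adjusted p = 0.0801).

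The main fibrillar collagens did not pass. Col1a1 read 13.36, 13.49, 13.53, 13.7 and 13.39 against 13.001 to 13.57 (0.17 ± 0.15, adjusted p = 0.414) and Col3a1 had a difference of 0.28 ± 0.14 (adjusted p = 0.141). The collagen list had 4 of 17 members up and 1 down, and the count of rises ran from 2 to 8 when single day 42 arrays were left out (8 without array 1, and 2 without each of arrays 2 to 5). Elastic fibre and cross-linking genes rose at 9 of 18, with Fbln1 up by 0.99 ± 0.16, while Eln (elastin) itself did not pass (-0.28 ± 0.12, adjusted p = 0.0809). Other matrix genes rose too. Smoc2 rose by 1.75 ± 0.21, Has2 (hyaluronan synthase) by 1.52 ± 0.25, and the spondins Spon1 and Spon2 by 1.43 ± 0.14 and 1.44 ± 0.19. Spon1 overlapped between the groups, and Spon2 did not, at 10.93, 11.49, 11.14, 11.22 and 11.64 against 9.05 to 10.2.

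The activator genes Npas2 and Bmal1 of the circadian clock rose, Clock did not pass, and Period genes fell. In that clock BMAL1 pairs with CLOCK or NPAS2 to switch on the Period and Cryptochrome genes, whose products then hold the pair back. The activator gene Npas2 ran from 8.28 to 9.27 with a median of 9.07 at day 21 and read 11.1, 10.43, 10.67, 10.42 and 10.33 at day 42 (1.58 ± 0.14, adjusted p = 4.26e-09), with no overlap. Bmal1 rose by 0.56 ± 0.15, and without the 3 muscle-rich arrays its adjusted p was 0.0514. The groups overlapped for Bmal1, and in batch 2 alone its difference was 0.3 (adjusted p = 0.395). Clock did not pass (-0.02 ± 0.08, adjusted p = 0.896). Per1 ran from 9.1 to 10.25 with a median of 9.6 at day 21, read 7.81, 7.87, 7.62, 7.29 and 8.47 at day 42 and fell by 1.82 ± 0.18 (adjusted p = 4.03e-08). Per2 fell by 0.98 ± 0.12, Per3 fell by 0.69 ± 0.14 and the output factor Tef fell by 0.94 ± 0.12. Of 14 clock genes 3 rose and 7 fell. The calls of Per2 and Per3 were lost without a batch term (adjusted p = 0.0908 and 0.124). In batch 2 alone Per3 was not called (-0.68, adjusted p = 0.219). Each stage was collected on 1 day, the hour is not given in the labels, and the part of the hour in these differences was not tested.

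Per1 is also a well-known target of glucocorticoids, and other genes with that property, chosen after their values were seen, were lower at day 42. Fkbp5, a co-chaperone of the glucocorticoid receptor, read 7.9, 8.32, 8.45, 8.43 and 8.79 against 9.04 to 10.42 and fell by 1.15 ± 0.16 (adjusted p = 5.92e-06). Tsc22d3 (the glucocorticoid-induced leucine zipper) fell by 1.21 ± 0.13 without overlap (8.09, 7.62, 7.88, 8.03 and 8.2 against 8.71 to 9.59). Klf9 fell by 0.84 ± 0.16, Ddit4 fell by 1.69 ± 0.28, Zbtb16 fell by 1.29 ± 0.35 and Depp1 fell by 1.66 ± 0.26. Of these, Zbtb16 overlapped between the groups. No list of glucocorticoid targets was counted, so targets that rose or stayed level are not shown. In batch 2 alone Fkbp5, Ddit4 and Zbtb16 were not called (adjusted p = 0.102, 0.171 and 0.224). The luminal covariate ended the calls of Fkbp5, Ddit4, Klf9 and Zbtb16 (adjusted p = 0.27, 0.231, 0.0991 and 0.826). Tsc22d3 (-1.11) and Depp1 (-1.74) stayed down in that fit. A role of glucocorticoids was not tested.

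Part of the vessel and nerve genes fell. Of 20 blood endothelial genes 8 fell and 1 rose (median -0.24), among them the transcription factor gene Erg (fell by 0.59 ± 0.12). Of 12 Schwann cell and nerve genes 5 fell and 3 rose. Mbp, a protein of myelin, fell by 0.75 ± 0.1 without overlap, and Scn7a, a sodium channel gene of glia, fell by 1.52 ± 0.27 with overlap (7.97, 7.17, 8.3, 9.22 and 8.65 against 9.05 to 10.82).

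MicroRNA genes are read on this array through probe sets for their loci, and the sources used here do not state whether the precursor or the mature form is measured. Of 52 tested 4 rose and 7 fell. Of the 5 called loci with the largest differences, 4 are shown with mature sequences from RefSeq (GRCr8), 5′ to 3′, with the seed, bases 2 to 8, in capitals. No seed printed here is shared by another of these 4 loci. For the other, Mir126a, no sequence is shown. RefSeq's table gives that locus a mature form named miR-126b and gives the miR-126a forms to Mir126b, which overlaps it on the opposite strand, so the strand that the probe set reads is not settled.

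rno-miR-365-3p (Mir365b), chr10:65184217-65184302 (hairpin), plus strand: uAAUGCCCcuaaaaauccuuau
rno-miR-142-3p (Mir142), chr10:73055104-73055190 (hairpin), plus strand: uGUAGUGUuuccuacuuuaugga
rno-miR-142-5p (Mir142), chr10:73055104-73055190 (hairpin), plus strand: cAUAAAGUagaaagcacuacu
rno-miR-21-5p (Mir21), chr10:71902600-71902691 (hairpin), minus strand: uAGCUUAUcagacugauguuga
rno-miR-218a-5p (Mir218-1), chr14:66922348-66922457 (hairpin), minus strand: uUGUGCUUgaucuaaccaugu

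Mir365b ran from 8.04 to 8.86 with a median of 8.49 at day 21 and read 7.25, 7.33, 7.35, 7.45 and 7.36 at day 42. It fell by 1.12 ± 0.14 (adjusted p = 9.69e-07) and was the only one of the 5 loci without overlap. Mir126a read 7.54, 8.77, 7.78, 7.9 and 9.12 against 8.56 to 9.95 and fell by 1.3 ± 0.21 (adjusted p = 3.1e-05), and the gene that spans it, Egfl7, did not pass (-0.25 ± 0.12, adjusted p = 0.114). Mir142, made in blood cells, fell by 1.43 ± 0.36 together with the lymphocyte genes and from a wide day 21 range of 5.15 to 8.998. It was not called in batch 1 alone (adjusted p = 0.09) or in batch 2 alone (adjusted p = 0.111). Mir218-1 lies within Slit2, and both rose, Mir218-1 by 0.71 ± 0.15 and Slit2 by 1.11. For Mir218-1, 9 day 21 values lay under the filter level. In batch 2 alone Mir218-1 was not called (0.33, adjusted p = 0.458), while the difference of Slit2 there was 1.16. Mir21 rose by 0.96 ± 0.29 (adjusted p = 0.0124), a call lost without peri-pubertal array 4 (adjusted p = 0.0592). The Mir21 call was also lost in batch 1 alone (adjusted p = 0.0535), in batch 2 alone (0.113) and without the 3 muscle-rich arrays (0.225). With the lymphocyte covariate its adjusted p was 0.422 and with the luminal covariate 0.851.

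Lymphocyte genes were lower at day 42. The T cell list had 16 falls among 17 members (median -2.16), the B cell list 12 among 13 (median -1.47) and the list of lymph node stroma and chemokines 10 among 14. The B cell count was 7 without peri-pubertal array 1 or 2 and 4 without array 4. Cd3g, a chain of the T cell receptor complex, ran from 6.32 to 11.1 with a median of 10.34 at day 21 and read 6.07, 6.16, 5.66, 5.75 and 8.24 at day 42, and it fell by 3.44 ± 0.67 (adjusted p = 0.000259). The groups overlapped, because pre-pubertal array 8 was as low as the day 42 glands and peri-pubertal array 5 was higher than the other 4. The B cell antigen gene Ms4a1 showed the same arrays apart (5.68, 5.75, 5.41, 5.99 and 8.71 at day 42, 5.6 in pre-pubertal array 8; fell by 2.5 ± 0.74) and lost its call without the 3 muscle-rich arrays (adjusted p = 0.117). Ccl19, which draws T cells into lymph nodes, fell by 2.98 ± 0.76. How much lymph node the samples held is not recorded and was not tested.

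Genes of other blood cells moved in both directions. Gzma (granzyme A) rose by 1.52 ± 0.22 (6.65, 6.81, 6.47, 6.83 and 5.27 against 4.48 to 5.55), with array 5 within the day 21 range. All of these Gzma values, at both ages, lay under the filter level. Prf1 (perforin) fell by 1.58 ± 0.46, a call lost without the 3 muscle-rich arrays (adjusted p = 0.0861). Of 19 macrophage genes 5 rose and 2 fell, and the count of rises was 3 without pre-pubertal array 1 or 9 or peri-pubertal array 2, 3 or 4. Adgre1, the F4/80 antigen, rose by 0.82 ± 0.17, Timd4, a receptor of resident macrophages, fell by 1.42 ± 0.34, and Cd68 and Csf1r did not pass (-0.09 ± 0.18 and -0.19 ± 0.2). C6, a component of the complement pore, was among the largest rises of all genes. It ran from 6.62 to 8.05 with a median of 7.58 at day 21 and read 9.67, 10.53, 10.61, 10.66 and 10.3 at day 42 (2.91 ± 0.24, adjusted p = 9.81e-10).

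Antibody gene segments held 2 of the 5 largest rises. LOC691897, a V segment among whose closest neighbours in the RefSeq gene table are the heavy chain entries Ighv3-72l-ps1 and Ighl5, ran from 3.44 to 5.01 with a median of 4.39 at day 21 and read 10.46, 8.43, 9.76, 8.74 and 6.29 at day 42 (4.37 ± 0.51, adjusted p = 3.64e-07). LOC690359, beside the kappa light chain pseudogene Igkvl-ps8, went from 4.51 to 4.92 at day 21 to 10.23, 8.26, 9.65, 10.06 and 6.58 (4.28 ± 0.49). Array 5 was lowest for both and array 1 highest, whereas array 5 was the highest of the day 42 glands for the B cell list. These 2 were the only V segments that rose among 22 tested, and 6 fell, among them LOC691076, beside the T cell receptor segment Travl1 (fell by 1.52 ± 0.39). V segments resemble each other closely, and probe sets can cross-hybridise between them. Jchain, which joins secreted antibodies, was not called (0.95 ± 0.47, adjusted p = 0.129), and of 9 plasma cell genes 1 rose. Pre-pubertal array 8 was low for Jchain (5.16).

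No gene of cell division or DNA replication was called. limma called 0 of 28 cell division genes (median 0.02, with 0 at an unadjusted p under 0.05) and 0 of 27 replication genes (median -0.12, with 2). Mki67 read 8.42, 11.53, 9.41, 9.95 and 10.65 at day 42 against 9.16 to 11.05 at day 21 (-0.08 ± 0.48), and Top2a had a difference of -0.2 ± 0.47. The day 42 glands differed among themselves by more than the groups did, with array 2 highest and array 1 lowest for both genes. At SEs of this size the lack of a call does not show that the ages had equal levels. Array 2 was also the gland with the highest Csn2 and Csn1s2a and the lowest Pgr among the 5. Without array 2, 4 of the replication genes were called down. Nuclear genes of oxidative phosphorylation fell at 6 and rose at 0 of 42 (median -0.09), with 3 falls without peri-pubertal array 1 and 2 without array 4, and ribosomal protein genes fell at 3 of 35.

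Because luminal genes were both higher and less variable at day 42, the fit was repeated with the luminal list mean of each array as a covariate. The ages barely share a range of that mean, so stage and covariate are hard to separate and SEs grow. Genes of the luminal list are part of the covariate, so their differences shrink by construction. With it 235 genes were called (2.14%), 106 up (0.965%) and 129 down (1.17%), 221 of them also called without it. Csn3 (6.99 ± 0.29, adjusted p = 3.5e-16), Clca1 (5.63 ± 0.51), Csn2 (4.09 ± 0.8), Pgr (3.18 ± 0.8), Olah (2.33 ± 0.31) and C6 (2.34 ± 0.34) stayed up. Prlr (1.45 ± 0.27), Mmp12 (2.11 ± 0.3), Npas2 (1.39 ± 0.21) and both V segments, LOC691897 (4.95 ± 0.79) and LOC690359 (4.37 ± 0.77), did so as well. Among the genes still down were Alox15 (-2.63 ± 0.25), Igf2 (-2.47 ± 0.38), Nnat (-2.44 ± 0.33), Lep (-2.08 ± 0.49), Per1 (-1.72 ± 0.29) and Pparg (-1.29 ± 0.25). The white adipocyte list had 8 falls and the clock list 2 rises and 4 falls, while the list of epithelial regulators had 0 and the T cell list 0. Lalba turned from 1.37 to -1.25 ± 0.33 (adjusted p = 0.0383), and Aqp5 (1.21 ± 0.48, adjusted p = 0.241) and the epithelial sodium channel genes Scnn1b and Scnn1g were no longer called.

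Several differences were larger with the covariate than without it, those of Csn3, Csn2, Nnat and Lep among them. The genes that follow were chosen after their values were seen. Chst9, which adds sulfate to sugar chains, went from -1.38 to -3.27 ± 0.26 (adjusted p = 1.66e-09) and Il18, a cytokine, from 1.59 to 2.67 ± 0.49 (adjusted p = 0.00234). Jchain went from 0.95 to 3.07 ± 0.53 and the V segment LOC690786 from -0.03 to 3.2 ± 0.51, and both were called only with the covariate. Also called only with it were 3 interferon-inducible GTPase genes, Ifi47 (1.53 ± 0.19), Irgm (0.85 ± 0.18) and Igtp (0.74 ± 0.16). At day 21 the luminal mean was lowest in array 2 (6.63) and highest in array 8 (9.32). Array 2 also stood apart as high for LOC690786 (11.58) and low for Lalba (7.47). Array 8 stood apart as low for Jchain (5.16) and Il18 (6.78). The weight of these arrays in the covariate fit was not tested.

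**Figure D5:**
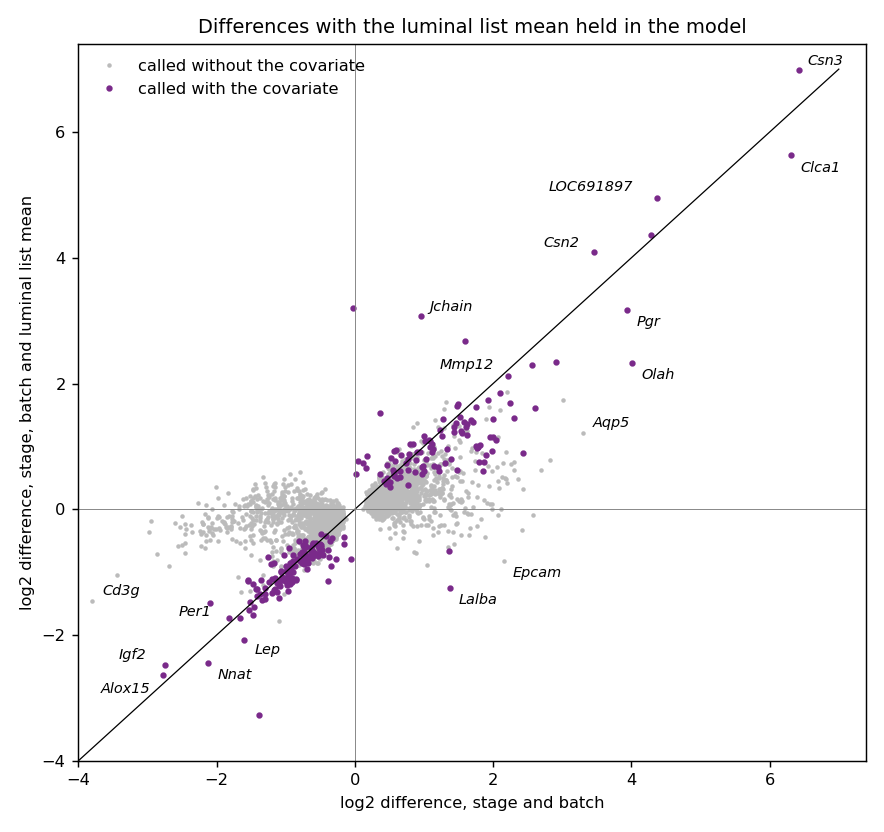
Each point is 1 gene called in either fit, with its log2 difference (day 42 minus day 21) from the fit with stage and batch on the x axis and from the fit that adds the luminal list mean on the y axis; dark points were called with the covariate and the diagonal marks equal differences. Csn3, Clca1, Csn2 and both V segments lay near the diagonal, while Epcam and the lymphocyte gene Cd3g moved toward or past 0. Epcam is a marker of the list that forms the covariate.

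The later stages of the series, which entered the same model, show where the leading genes stood afterwards, as uncorrected group means. The lactation arrays (day 146) all came from a single batch. The nulliparous arrays (day 181) came partly from a further batch, whose RNA was extracted with another kit. The part of batch and kit in these means was not tested. Csn3 was 13.4 at day 63, 13.65 in lactation and 13.33 in nulliparous adults, against 12.8 at day 42, and values near the top of the scale can be compressed. Csn1s2b was 7.38 at day 63, 13.94 in lactation and 8.03 in nulliparous adults, and Wap was 9.93 at day 63, 13.85 in lactation and 10.87 in nulliparous adults. Pgr was 8.96 at day 63, 7.01 in lactation and 9.15 in nulliparous adults, and Areg was 7.7 at day 63, 6.43 in lactation and 9.84 in nulliparous adults. Igf2 was 7.72 at day 63, 6.62 in lactation and 7.99 in nulliparous adults, and Per2 was 8.003 at day 63, 6.98 in lactation and 9.19 in nulliparous adults. LOC691897 was 9.81 at day 63, 6.22 in lactation and 9.04 in nulliparous adults, and Mmp12 was 9.14 at day 63, 11.61 in lactation and 9.91 in nulliparous adults.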

How the data were processed

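Whole-transcript Affymetrix arrays measured total RNA of 33 rat mammary glands. Per the submitters' processing notes, the authors' deposited log2 values were made with Affymetrix Expression Console and RMA (versions not given in the sources used here), which corrects background, quantile-normalizes and summarises probe sets. RMA puts all arrays on 1 distribution, so a shift of most genes would not be seen.

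Among 36685 probe sets, the 18511 with a single gene symbol were used, leaving out 575 that list several and 17599 without one. Symbols were updated through RefSeq gene identifiers where these matched (18394 probe sets). For symbols with more than 1 probe set (291 of 18166), that with the highest mean was kept. A gene was tested if it exceeded 7.645, the median over the probe sets used, on 3 arrays or more (10986 genes). limma 3.58.1 in R 4.3.3 fitted stage and batch to all 33 arrays, with an intensity trend and 25 residual degrees of freedom. Tests were two-sided with Benjamini-Hochberg adjustment, and the script was tested on simulated data. The covariate fits add a list mean per array. The other alternatives were other filters, normalizations, probe set rules, array sets, array weights and thresholds, and leaving out each array.

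Named genes were drawn by rule from the 15 largest rises and 15 largest falls without overlap, the first 2 members of each of 75 gene lists and up to 6 called members per list and direction, and members of small families; not every first member of a list is named. Exceptions are marked, and the casein neighbours, V segments, host genes and genes of the covariate fit were taken for position or after their values were seen. The comparison, lists and tests were chosen with earlier results of these data known. Lists are described by counts and medians and were not tested. Each array was taken as 1 animal.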

Additional observations from a re-analysis of the deposited data

Results flagged for a closer look

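For each named gene and each marker list mean, the highest or lowest array of a group was compared with the rest of that group. A value stood apart where its gap to the nearest other array, divided by the range of the group, passed Dixon's 95% critical value. Chance gives about 1 in 20 groups. Of 490 groups of values examined 46 stood apart (9.39%), and genes of 1 cell type are not independent. Values are log2, and no explanation for them was tested.

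Pre-pubertal array 2 was low for epithelial and milk genes, with Btn1a1 (5.88), Csn1s1 (8.76), Ehf (5.84), Elf5 (5.8), Epcam (4.5), Lalba (7.47), Muc15 (5.11), Plet1 (5.43), Prr27 (7.47) and glycosyltransferases and mucins list mean (7.74). It was high for LOC690786 (11.58). Pre-pubertal array 8 was low for Glycam1 (7.24), Grem1 (5.72), Il18 (6.78), Jchain (5.16), Ms4a1 (5.6), Rspo3 (6.4) and Timd4 (6.57), most of which are genes of lymphocytes, macrophages or stroma, and high for Areg (8.56). Pre-pubertal array 1 was low for Igf1 (11.63), Mir126a (8.56) and mast cell list mean (7.51). Array 9 was low for Npas2 (8.28), and array 10 was high for skeletal muscle list mean (9.76).

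Peri-pubertal array 5 was high for Ccl19 (8.03), Cd3g (8.24), Mmp9 (7.12), Ms4a1 (8.71), Prf1 (7.46), Slc7a11 (6.51), T cell list mean (7.99), B cell list mean (8.42) and dendritic cell list mean (7.87), a set led by lymphocyte genes. It was low for Adgre1 (7.98), Esr1 (8.72) and Gzma (5.27). Peri-pubertal array 2 was high for Csn2 (11.17) and Plagl1 (10.56) and low for Clca5 (8.49), Epcam (10.14), Hpd (6.09), Plet1 (9.78), Robo2 (8.06) and lymphatic endothelium list mean (9.06). Array 3 was high for Igf1 (12.38), and array 4 was low for Mbp (8.32).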

How the results depend on the processing

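The count of 3552 called genes (1883 up, 1669 down) stayed within 1.5 times under a random batch block, no filter on low values, repeated quantile normalization, median centring, averaged probe sets, only the 15 arrays, no batch 3, no intensity trend and a muscle covariate. It was 1325 (710 up, 615 down) without a batch term, 2362 (1071 down) with the filter at the 75th percentile, which tests fewer genes, and 2230 (971 down) at an adjusted p under 0.01. It was 612 (290 up, 322 down) for changes of at least 2-fold, 1693 (889 and 804) in batch 1 alone and 466 (370 and 96) in batch 2 alone, which hold fewer arrays. Without the 3 muscle-rich arrays it was 2272 (937 down), with the lymphocyte covariate 1775 (871 and 904) and with the luminal covariate 235 (106 and 129). Array weights gave 2531 falls. Leaving out 1 array gave 3000 to 3862 calls, 1658 to 2018 up and 1318 to 1844 down. Except where a value or the alternative's construction is named, the cause was not tested.

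Of 152 named genes called, 55 kept their call with the luminal covariate, 79 lost it and 18 changed sign. Those that changed sign were Btn1a1 (-0.33), Cdh1 (-0.35), Cldn3 (-0.04), Cldn4 (-0.09), Csn1s1 (-0.6), Ehf (-0.26), Elf5 (-0.09), Epcam (-0.82), Esrp1 (-0.16), Glycam1 (0.1), Grhl2 (-0.41), Krt18 (-0.06), Krt8 (-0.25), Lalba (-1.25), Prf1 (0.07), Tfap2b (-0.55), Tfap2c (-0.31) and Timd4 (0.05). Krt8, Krt18, Epcam and Cdh1 are markers of the luminal list that forms the covariate, so the loss of their rise follows from its construction. LOC690786, not called before, became 3.2. With the lymphocyte covariate 130 kept their call, and Ms4a1 (0.27) and Prf1 (0.1) changed sign. Ms4a1 is a marker of the B cell list, which is part of that covariate. In batch 1 alone 120 kept it and in batch 2 alone 88. Under the other alternatives none of the 152 changed sign, whereas some named genes that were not called did (Cd68 was 0.22 in batch 2 alone). No paired analysis was possible because the labels give no replicate number shared between the ages. With 5 glands at day 42, small differences could not be resolved, and genes under the filter were not tested.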
